A study of Homo sapiens with 16 samples.

Results

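The aminoacyl-tRNA synthetases, the enzymes that load each tRNA with its amino acid, were examined in RNA of the human prostate cancer line LNCaP as 38 of the 58051 genes counted. The members were chosen by name and found through their Ensembl identifiers. The cytosolic set holds 22 genes, 19 of which encode enzymes or enzyme subunits and 3 of which encode scaffold proteins (AIMP1, AIMP2 and EEF1E1), and the mitochondrial set holds 16 enzyme genes. For 17 of the cytosolic enzymes, older names lack the final 1. The 16 libraries form 4 groups of 4. The siCtrl cells received Allstar control siRNA and the siXBP1 cells received siRNA against XBP1, each for 2 days, whereas the Vehicle cells received DMSO and the MKC8866 cells received 10 µM of MKC8866, an inhibitor of the IRE1α RNase, each for 24 h. The cells of all 4 groups then took thapsigargin (TG) at 30 nM for 3 h, so every comparison is between cells under ER stress. Both experiments used this one line, and the study describes the 4 libraries of a group as independent samples. Neither the labels nor the study says that they came from separate cultures, so p-values measure the spread between these libraries, which may be technical. The knockdown and the inhibitor had separate controls and different durations, so the kind of inhibition and the experiment cannot be told apart.

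Each synthetase recognises one amino acid and its tRNAs, and the charged tRNA then carries that amino acid to the ribosome. Human cells keep one set of these enzymes for the cytosol and a second, also encoded in the nucleus, that is imported into mitochondria for the few proteins made there, while single genes supply both compartments with the enzymes for glycine (GARS1) and lysine (KARS1). Several cytosolic enzymes sit in the multisynthetase complex, held together by the scaffold proteins. Many cytosolic synthetase genes are known targets of ATF4, the transcription factor that the PERK arm of the unfolded protein response induces, whereas XBP1s, made when IRE1α splices XBP1 mRNA, is best known for genes of protein folding, secretion and ER-associated degradation.

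Between 28713607 and 34509488 fragments were counted per library, and levels are given as CPM (the count scaled to a common library depth) after TMM scaling over the 16 libraries. XBP1 mRNA lay at 359 to 421 CPM in the siCtrl libraries and at 51.2 to 54.2 CPM in the siXBP1 libraries, and at 482 to 539 CPM with Vehicle against 536 to 619 CPM with MKC8866. The log2 fold changes were -2.85 ± 0.051 (SE, adjusted p = 2.92e-20) after knockdown and 0.20 ± 0.044 (SE, adjusted p = 0.00493) with MKC8866, by edgeR's quasi-likelihood test. The knockdown therefore matched its label, while the count of a whole gene does not show splicing. All 9 markers of luminal prostate cells were present, at 93.8 to 106 CPM for the lowest, KLK2 in siXBP1, and up to 1219 to 1299 CPM for FOLH1 in MKC8866. Of markers of other cells, PTPRC and PECAM1 did not exceed 0.0680 CPM in any library, KRT5 did not exceed 0.104 CPM and TP63 did not exceed 0.552 CPM, whereas COL1A1 lay at 24.7 to 36.5 CPM. After knockdown 5 of the 9 luminal markers were called lower by edgeR's quasi-likelihood test, beside 18.2% of all genes tested. TMPRSS2 (-0.89 on the log2 scale) and KLK3 (-0.86) led them. With MKC8866 1 marker was lower and 2 higher, beside 3.11% lower and 1.36% higher over all genes. The part of these markers in the results below was not tested. In RNA from whole cultures, fewer cells of a kind and less RNA per cell cannot be told apart.

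Per unit of length the cytosolic set was the more abundant one. The median over the 16 libraries ran from 4.75 to 231 FPKM (fragments counted, scaled to exon length and to library depth) in the cytosolic set, with a set median of 51.4 FPKM, and from 1.64 to 33.1 FPKM in the mitochondrial set, with a set median of 10.00 FPKM. AARS1, the alanyl enzyme, came first at 231 FPKM, followed by GARS1 at 176 FPKM and the threonyl enzyme TARS1 at 119 FPKM. Among mitochondrial enzymes the isoleucyl IARS2 (33.1 FPKM) and the leucyl LARS2 (20.2 FPKM) led, and the seryl SARS2 (1.64 FPKM) was last of the 38. All 38 members passed the filter on low counts in both comparisons, and the lowest count of any member in any library was 133.

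After XBP1 knockdown the mitochondrial set was mostly lower or uncalled, and the cytosolic set was split. With edgeR's quasi-likelihood test at a Benjamini-Hochberg adjusted p under 0.05, 7 of 16 mitochondrial members were called lower and 1 higher, against 5 lower and 5 higher of 22 cytosolic members. Over all 21021 genes tested, 18.2% were called lower and 16.5% higher. The median log2 fold change was -0.10 for the mitochondrial set and -0.042 for the cytosolic set, beside 0.0050 for all genes tested, and 27 of the 38 members had a negative value. The cytosolic calls lay near the background in both directions, and the mitochondrial calls lay above it for lower and below it for higher.

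**Figure D1:**
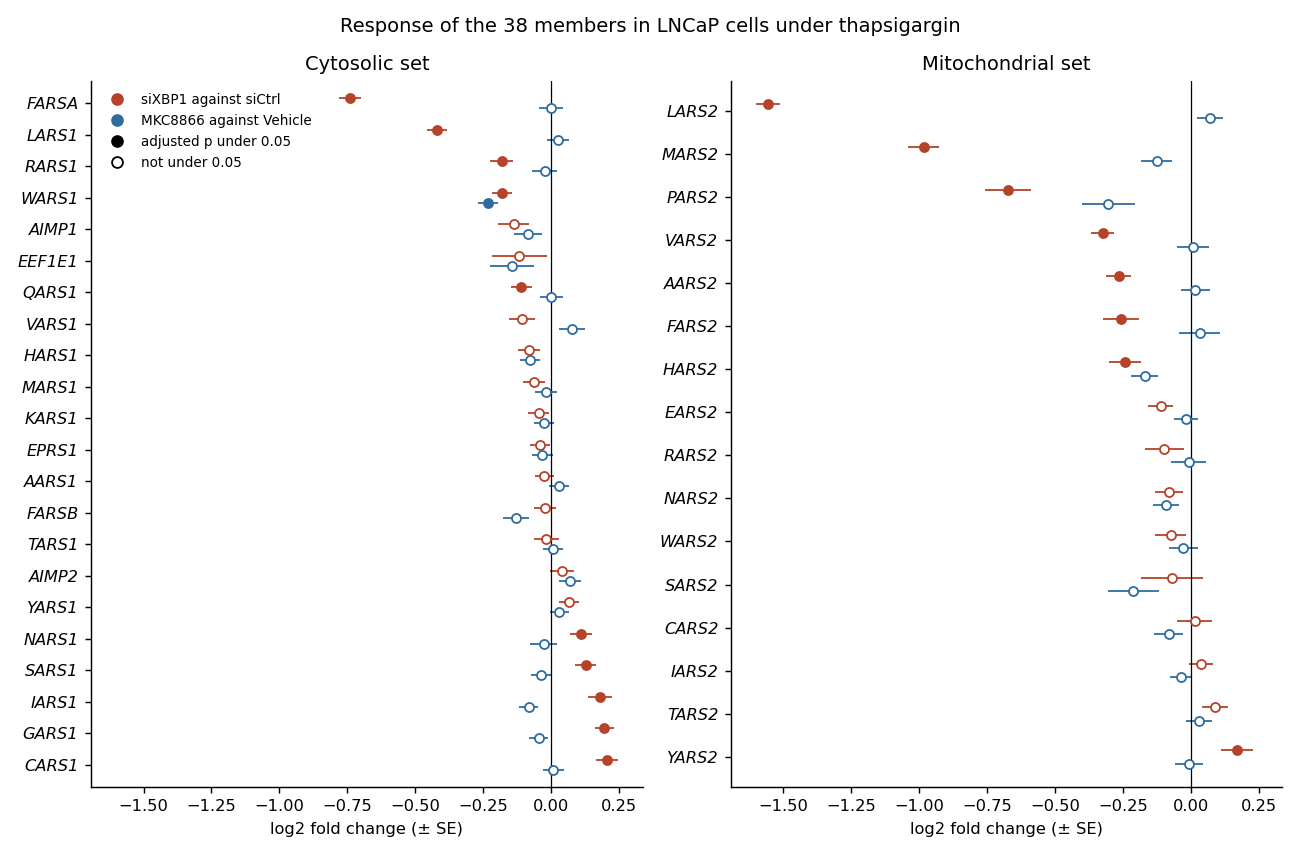
Log2 fold change with its standard error (x axis) for each of the 22 cytosolic and 16 mitochondrial members (y axis) after XBP1 knockdown (red) and after MKC8866 (blue), with filled points for an adjusted p under 0.05. The red points spread from -1.56 for LARS2 to 0.21 for CARS1, while WARS1 has the single filled blue point.

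The summed level of the mitochondrial set was 806 ± 14.1 CPM (SD, n = 4) in siCtrl and 674 ± 13.9 CPM in siXBP1, and the highest siXBP1 library (692 CPM) lay under the lowest siCtrl library (787 CPM). Without LARS2 the sums were 692 ± 12.9 CPM and 635 ± 13.3 CPM, and these groups were also separate. The cytosolic sums were 7547 ± 74.3 CPM and 7505 ± 72.7 CPM, with overlapping libraries. The cytosolic sum was thus 9.37 ± 0.116 times the mitochondrial one in siCtrl and 11.1 ± 0.159 times in siXBP1. With Vehicle and MKC8866 the full mitochondrial sum was 780.3 ± 13.8 CPM and 767 ± 15.9 CPM, with overlapping libraries. Without LARS2 it was 674 ± 8.86 CPM and 655 ± 9.54 CPM, and those libraries did not overlap, by a narrow margin. The ratio of the 2 full sums was 9.27 ± 0.161 and 9.31 ± 0.226, and the libraries overlapped.

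**Figure D2:**
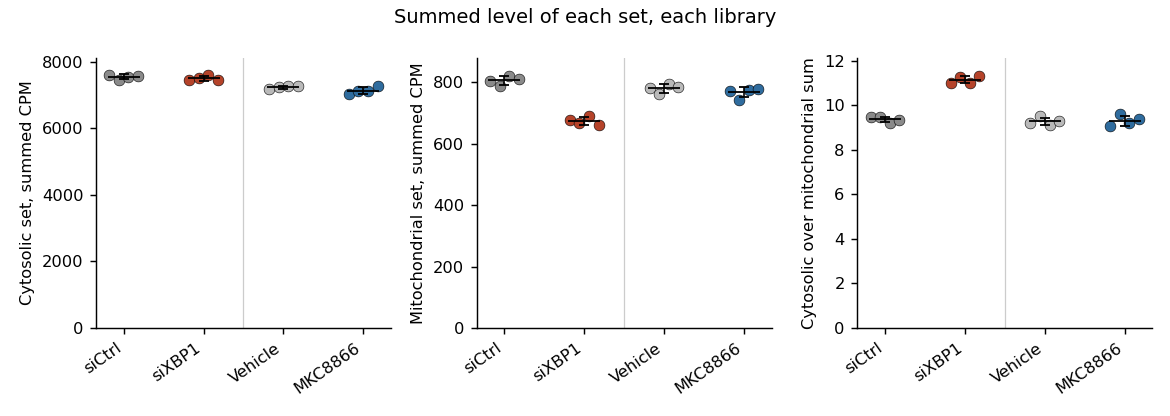
Summed CPM of the cytosolic set (left), of the mitochondrial set (middle) and their ratio (right) in each library of the 4 groups, with the group mean and SD in black and all y axes from 0. The 4 siXBP1 libraries stand apart in the middle panel, at 659 to 692 CPM, and in the right panel their mean is 11.1.

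LARS2, which charges mitochondrial tRNA with leucine (chr3:45388506-45549421, plus strand, GRCh38), had the largest change of the 38. It stood at 110.4, 112, 114 and 118 CPM in the siCtrl libraries and at 40.1, 38.04, 38.6 and 37.6 CPM in the siXBP1 libraries. The groups lay far apart and each was tight. The log2 fold change was -1.56 ± 0.044 (SE, adjusted p = 3.19e-17), a level 2.94-fold lower.

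MARS2, the mitochondrial methionyl enzyme (chr2:197705369-197708387, plus strand), read 31.2, 33.8, 31.01 and 31.5 CPM in siCtrl and 16.7, 16.2, 15.04 and 16.5 CPM in siXBP1, with no overlap. The log2 fold change was -0.98 ± 0.058 (SE, adjusted p = 7.04e-12). PARS2, the prolyl enzyme of mitochondria (chr1:54756898-54764514, minus strand), read 10.8, 10.3, 11.5 and 10.4 CPM and 7.70, 6.54, 6.57 and 6.20 CPM. Here too every siXBP1 library was below every siCtrl library, at a log2 fold change of -0.67 ± 0.086 (SE, adjusted p = 1.55e-06).

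The other 4 mitochondrial members called lower moved less, and for each of them the 4 siXBP1 libraries lay under the 4 siCtrl libraries. VARS2 (valine) went from 74.9, 74.6, 74.03 and 74.4 CPM to 59.4, 59.6, 57.7 and 61.2 CPM, a log2 fold change of -0.32 ± 0.042 (SE, adjusted p = 1.79e-06). AARS2 (alanine) went from 50.7, 50.9, 49.3 and 50.5 CPM to 42.6, 43.5, 40.1 and 41.3 CPM, -0.27 ± 0.046 (SE, adjusted p = 7.25e-05). FARS2 (phenylalanine) and HARS2 (histidine) are the other two of this group. FARS2 went from 15.4, 15.5, 15.04 and 13.8 CPM to 12.1, 12.9, 12.7 and 12.3 CPM, -0.26 ± 0.067 (SE, adjusted p = 0.00449), and HARS2 lay at 54.1 to 62.97 CPM in siCtrl and at 44.6 to 52.5 CPM in siXBP1, -0.24 ± 0.057 (SE, adjusted p = 0.00191).

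YARS2, the mitochondrial tyrosyl enzyme, was the one member of its set called higher. Its siCtrl libraries read 23.1, 21.5, 23.9 and 22.999 CPM and its siXBP1 libraries 27.3, 24.3, 26.7 and 24.8 CPM. The groups did not overlap but lay close, and the log2 fold change was 0.17 ± 0.059 (SE, adjusted p = 0.027). The call was lost in 3 of the 8 fits that left out 1 library (siCtrl replicate 2, siXBP1 replicate 1 or siXBP1 replicate 3), with an adjusted p of up to 0.0746. The remaining 8 mitochondrial members ran from -0.11 for EARS2 (glutamate) to 0.089 for TARS2 (threonine) and were not called.

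**Figure D3:**
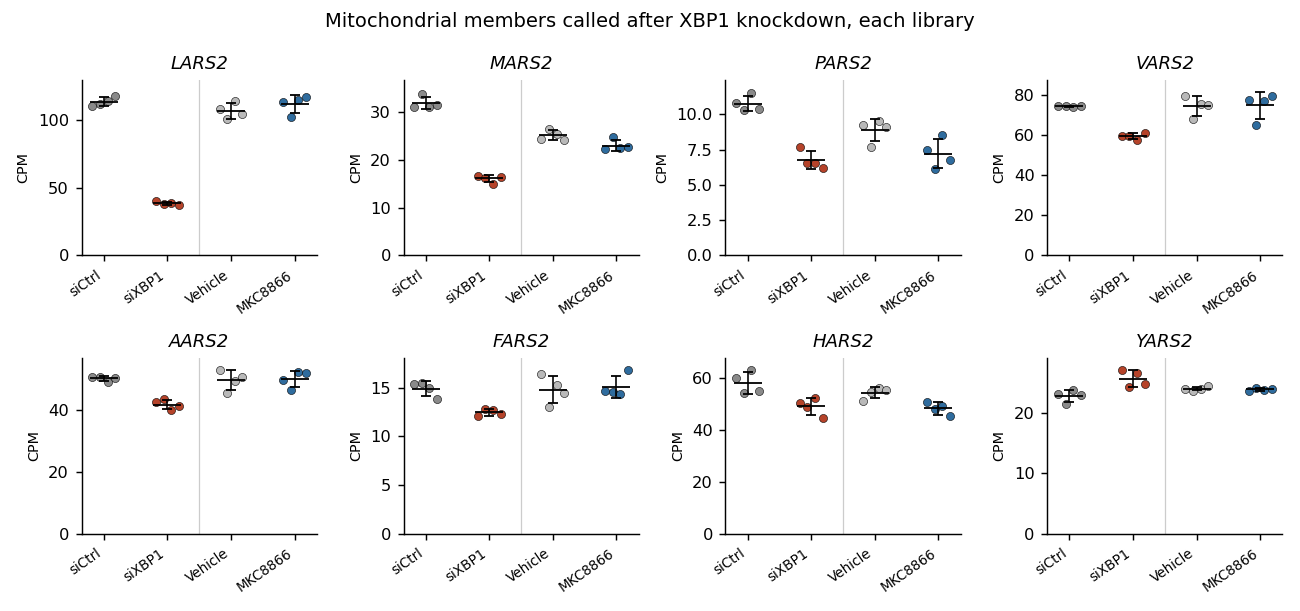
CPM (y axis, from 0) of the 8 mitochondrial members called after knockdown in each library of the 4 groups, with group mean and SD in black. LARS2 in siXBP1 lies at 37.6 to 40.1 CPM against 100.5 CPM or more in the other groups, whereas the MKC8866 libraries of LARS2 overlap those of Vehicle.

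In the cytosolic set, FARSA fell most. It encodes the alpha subunit of the phenylalanyl enzyme (chr19:12922479-12934037, minus strand) and read 255, 271, 263 and 273 CPM in siCtrl against 154, 158, 156 and 167 CPM in siXBP1. The groups were far apart, with a log2 fold change of -0.74 ± 0.040 (SE, adjusted p = 1.48e-12). FARSB, the beta subunit of the same enzyme, read 98.98, 95.3, 102 and 101 CPM and 95.8, 101, 97.1 and 97.8 CPM. Its libraries overlapped, and its log2 fold change was -0.023 ± 0.041, with a 95% interval of -0.10 to 0.057. The subunits thus had unlike values, although their difference was not itself tested.

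LARS1, the cytosolic leucyl enzyme (chr5:146113038-146182660, minus strand), read 271, 263, 269 and 269 CPM in siCtrl and 193, 201, 206 and 201 CPM in siXBP1, which do not overlap. The log2 fold change was -0.42 ± 0.037 (SE, adjusted p = 6.81e-09). RARS1 (arginine) lay at 127 to 133 CPM in siCtrl and at 109 to 119 CPM in siXBP1, -0.18 ± 0.042 (SE, adjusted p = 0.00154). WARS1 (tryptophan) went from 275, 269.7, 288 and 271 CPM to 243, 247, 246 and 238 CPM, -0.18 ± 0.037 (SE, adjusted p = 0.000565). Both moved by little but without overlap. QARS1 (glutamine) was called lower at -0.11 ± 0.039 (SE, adjusted p = 0.0309), at 193 to 207 CPM in siCtrl and 180.1 to 192 CPM in siXBP1. That call was lost in 7 of the 8 fits that left out 1 library, every one except the fit without siCtrl replicate 1, with an adjusted p of up to 0.112, and in the fit without a filter on low counts (adjusted p = 0.0800).

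The 5 cytosolic members called higher moved by 0.11 to 0.21 on the log2 scale. CARS1, the cysteinyl enzyme (chr11:3000922-3057613, minus strand), read 169, 159, 167 and 162 CPM in siCtrl and 193, 188, 195 and 182 CPM in siXBP1. Its groups were separate and the log2 fold change was 0.21 ± 0.039 (SE, adjusted p = 0.000224). GARS1, which makes both the cytosolic and the mitochondrial glycyl enzyme (chr7:30594681-30634033, plus strand), read 737, 754, 773 and 754 CPM and 861, 864, 871 and 863 CPM. These groups were also separate, and the siXBP1 libraries were close to each other. Its log2 fold change was 0.20 ± 0.036 (SE, adjusted p = 0.000128).

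IARS1, the isoleucyl enzyme (chr9:92210207-92293756, minus strand), read 570.2, 505, 557 and 499 CPM in siCtrl and 615, 586, 615 and 597 CPM in siXBP1, a log2 fold change of 0.18 ± 0.044 (SE, adjusted p = 0.0028). The siCtrl libraries were spread but all lay lower. SARS1 (serine) read 402, 379.6, 389 and 405 CPM and 409, 442, 442 and 429 CPM, 0.13 ± 0.039 (SE, adjusted p = 0.0131). NARS1 (asparagine) read 507, 468, 468 and 492 CPM and 502, 524, 544 and 518 CPM, 0.11 ± 0.040 (SE, adjusted p = 0.0377). SARS1 had separate groups, whereas those of NARS1 overlapped. The NARS1 call was lost in 5 of the 8 fits that left out 1 library (siCtrl replicate 2 or 3, siXBP1 replicate 2, 3 or 4, with an adjusted p of up to 0.0972) and in the fit of all 16 libraries (adjusted p = 0.0996).

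**Figure D4:**
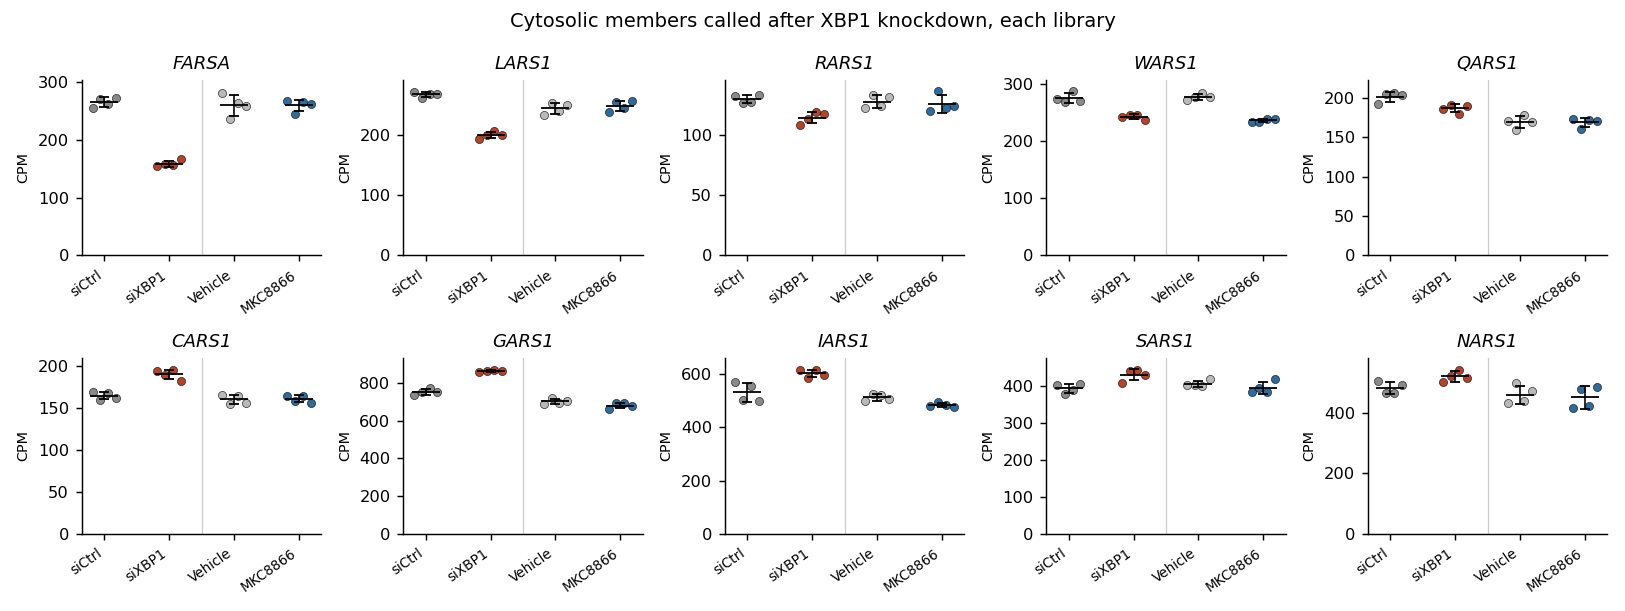
CPM (y axis, from 0) of the 10 cytosolic members called after knockdown in each library of the 4 groups, the 5 lower in the top row and the 5 higher in the bottom row, with group mean and SD in black. FARSA shows the widest gap, at 154 to 167 CPM in siXBP1 against 255 to 273 CPM in siCtrl, and WARS1 is lower in both siXBP1 and MKC8866.

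The promoters were searched for motifs of ATF4, of XBP1 and of E-box factors. RefSeq sequence (GRCh38.p14) from 250 bases before to 50 bases after a transcription start was found for 33 of the 38 members, 19 cytosolic and 14 mitochondrial. No entry was matched for AARS2, LARS1, VARS1, VARS2 and YARS1. The C/EBP-ATF response element, searched as TGATGNAA on both strands, is the site through which ATF4 acts with C/EBP partners. It occurred in 7 of 19 cytosolic promoters (36.8%) and 1 of 14 mitochondrial ones (7.14%), beside 4.46% of the 27305 genes with an entry. Of the 6 members called higher after knockdown, 5 held these letters (CARS1, GARS1, IARS1, NARS1 and YARS2), SARS1 being the exception. The calls of NARS1 and YARS2 were lost in 5 and 3 of the 8 fits that left out 1 library. Of the 9 members called lower that had an entry, 0 held them, and of the 18 uncalled members 3 did (AARS1, MARS1 and TARS1). Among the cytosolic enzymes listed as ATF4 targets, 7 of the 10 with an entry held the letters (70.0%), these 3 uncalled ones included. In the list of other ATF4 targets of amino acid supply, 5 of the 14 genes with an entry held the letters (35.7%), and of these SLC3A2 and SLC1A5 were called higher after knockdown, SLC7A1 and SLC1A4 lower, and ASNS was not called. A match is a description of the letters, not a shown site of binding.

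These 8 stretches of 30 bases show the matches, in capitals, with 11 bases on each side, read 5′ to 3′ along the strand of the gene. In 6 of them the element lies on the other strand, so its reverse complement is read. The first 5 belong to members called higher after knockdown, in the order CARS1 (chr11:3057407-3057436, minus strand), GARS1 (chr7:30594834-30594863, plus strand), IARS1 (chr9:92293692-92293721, minus strand), NARS1 (chr18:57621804-57621833, minus strand) and YARS2 (chr12:32756076-32756105, minus strand). The last 3 belong to uncalled members, AARS1 (chr16:70289675-70289704, minus strand), MARS1 (chr12:57488053-57488082, plus strand) and TARS1 (chr5:33440956-33440985, plus strand).
CARS1: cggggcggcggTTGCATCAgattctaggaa
GARS1: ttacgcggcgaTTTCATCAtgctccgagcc
IARS1: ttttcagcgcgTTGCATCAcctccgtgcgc
NARS1: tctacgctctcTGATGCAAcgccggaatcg
YARS2: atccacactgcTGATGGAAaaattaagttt
AARS1: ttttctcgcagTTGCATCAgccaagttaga
MARS1: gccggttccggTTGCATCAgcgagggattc
TARS1: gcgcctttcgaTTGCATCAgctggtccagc

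Of the 8 matches, 6 read the same 8 letters, TTGCATCA or its reverse complement TGATGCAA, and the exceptions are GARS1 with TTTCATCA and YARS2 with TGATGGAA. The matches of CARS1, IARS1 and MARS1 began 2, 13 and 4 bases before the annotated start and that of GARS1 33 bases before it. Those of AARS1 and YARS2 began 187 and 197 bases before the start, and those of TARS1 and NARS1 lay just after it.

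An XBP1 element, searched as TGACGTGG on both strands, occurred in 2 of the 33 member promoters, beside 0.927% of all genes with an entry. One was at CARS1, which was called higher, at another of its annotated starts (chr11:3040935-3040964, minus strand), and the other was at CARS2, its mitochondrial counterpart (chr13:110706524-110706553, minus strand), whose log2 fold change was 0.014 ± 0.063 and which was not called. The element is in capitals in these stretches.
CARS1: tgggaaaaaggTGACGTGGtattgctgtgg
CARS2: tattagcgtgcTGACGTGGgctgtgctggg

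The ER stress element, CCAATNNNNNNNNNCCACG, was found in 0 of the 33, beside 0.0916% of all genes. The E-box CACGTG was found in 2 cytosolic (AIMP2 and IARS1) and 3 mitochondrial promoters (CARS2, EARS2 and MARS2), beside 8.77% of all genes. Each motif was read on its own. Of the 9 members called lower that had an entry, MARS2 was the one with a match to any of the 4.

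Within the cytosolic set, 12 enzymes were listed as ATF4 targets, and after knockdown 2 of them were called lower (LARS1 and WARS1) and 5 higher, with a median log2 fold change of 0.025, beside 18.2% lower and 16.5% higher over all genes. Of the 7 cytosolic enzymes outside that list, 3 were called lower (FARSA, QARS1 and RARS1) and 0 higher, with a median of -0.11. Read against the same shares, the lower count of the 12 lay near the background. For the 7 outside, edgeR's test also gave no higher value at an unadjusted p under 0.05, and DESeq2 called none higher. The share of all genes at that unadjusted threshold was not counted. AARS1, highest of the members per unit of length, read 1051, 1063, 1050.4 and 1071 CPM in siCtrl and 1067, 1025, 1032 and 1040.1 CPM in siXBP1. Its libraries overlapped, at -0.024 ± 0.036. TARS1 (-0.017), EPRS1 for glutamate and proline (-0.039), MARS1 for methionine (-0.063) and YARS1 for tyrosine (0.066) were likewise not called.

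The multisynthetase complex was counted as 10 members, of which 3 were called lower (LARS1, QARS1 and RARS1) and 1 higher (IARS1) after knockdown, beside 18.2% lower and 16.5% higher over all genes. The scaffold genes were not called. AIMP1 had a log2 fold change of -0.14 ± 0.057, AIMP2 of 0.040 ± 0.045 and EEF1E1, the least abundant cytosolic member, of -0.12 ± 0.10. KARS1, which like GARS1 serves both compartments, read 224, 231, 241 and 234 CPM in siCtrl and 223, 225, 235 and 218 CPM in siXBP1. It was not called (-0.045 ± 0.039), whereas GARS1 was called higher.

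HARS1 and HARS2, the cytosolic and mitochondrial histidyl enzymes, are neighbours on chromosome 5 in opposite directions (chr5:140673173-140692024, minus strand, and chr5:140691426-140699291, plus strand), and their annotated exons share 592 bases. HARS1 read 123, 120.1, 122 and 115 CPM in siCtrl and 112, 112, 118 and 113 CPM in siXBP1, and 120.1, 123, 122 and 121 CPM with Vehicle against 115, 114, 114 and 116 CPM with MKC8866. HARS2 read 59.999, 54.1, 62.97 and 54.96 CPM and 50.5, 48.7, 52.5 and 44.6 CPM in the knockdown, and 51.2, 54.8, 56.2 and 55.4 CPM and 50.8, 47.9, 49.4 and 45.2 CPM with the inhibitor. HARS1 overlapped between siCtrl and siXBP1 but not between Vehicle and MKC8866, and HARS2 overlapped in neither. All 4 differences were negative, and of these the HARS2 difference after knockdown was called.

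Comparing the enzymes that serve the same amino acid in each compartment, the mitochondrial one had the lower log2 fold change for 11 of 16 amino acids after knockdown, with a median difference (cytosolic minus mitochondrial) of 0.18. EPRS1 enters for both glutamate and proline, and FARSA stands for the cytosolic phenylalanyl enzyme. The gap was widest for leucine, where both enzymes fell, with -0.42 for LARS1 and -1.56 for LARS2. For methionine MARS1 had -0.063 and MARS2 -0.98. Phenylalanine had the widest gap the other way, with -0.74 for FARSA and -0.26 for FARS2. After MKC8866 the mitochondrial enzyme had the lower value for 9 of 16 amino acids, with a median difference of 0.025. The differences between partners were not tested.

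**Figure D5:**
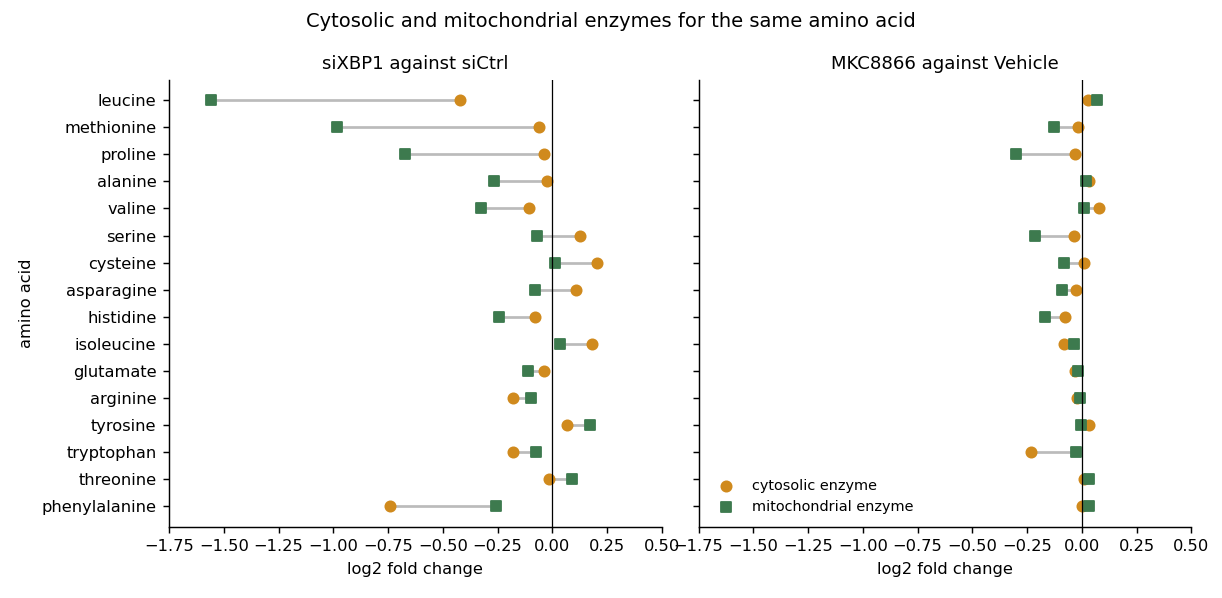
Log2 fold change (x axis) of the cytosolic enzyme (orange circle) and the mitochondrial enzyme (green square) for each of 16 amino acids (y axis) after XBP1 knockdown (left) and after MKC8866 (right). The squares lie left of the circles for 11 amino acids in the left panel, furthest for leucine at -1.56 against -0.42, and both kinds of symbol stay near 0 in the right panel except for PARS2 (proline), SARS2 (serine), HARS2 (histidine) and WARS1 (tryptophan).

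With MKC8866, WARS1 was the one member called in the fit by group alone. Further members called when the fit also took in replicate numbers are given with the dependence on processing below. It read 272, 278, 285 and 278 CPM with Vehicle and 234, 234, 239.6 and 239 CPM with MKC8866, and all 4 treated libraries were lower. The log2 fold change was -0.23 ± 0.036 (SE, adjusted p = 0.000122). Of 22 cytosolic members 1 was thus called lower and 0 higher, and of 16 mitochondrial members 0 were called in either direction, beside 3.11% of 21045 genes called lower and 1.36% called higher. The set medians were -0.025 (cytosolic) and -0.022 (mitochondrial), beside 0.0027 for all genes. At an unadjusted p under 0.05, edgeR's test gave 3 cytosolic members lower (FARSB, IARS1 and WARS1) and 0 higher. It gave 4 mitochondrial members lower (HARS2, MARS2, PARS2 and SARS2) and 0 higher. The share of all genes at that unadjusted threshold was not counted, so these counts have no background beside them. DESeq2 called WARS1 and HARS2 lower and none higher.

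The mitochondrial members nearest to a call with MKC8866 were HARS2 and PARS2. HARS2 had a log2 fold change of -0.17 ± 0.050 (SE) and an adjusted p of 0.0515 by edgeR's quasi-likelihood test, and its groups were separate. PARS2 read 9.26, 7.70, 9.50 and 9.08 CPM with Vehicle and 7.45, 6.14, 8.50 and 6.74 CPM with MKC8866, and its libraries overlapped. Its log2 fold change was -0.30 ± 0.097, with an adjusted p of 0.0851. LARS2, in contrast to its fall after knockdown, read 108, 100.5, 114 and 105 CPM and 113, 102, 114 and 117 CPM, with overlapping groups. Its log2 fold change was 0.070 ± 0.048, with a 95% interval of -0.025 to 0.16.

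The difference between the responses (knockdown minus inhibitor) was tested in a fit of all 16 libraries, in which 12.7% of 20357 genes were called more negative and 10.6% more positive after knockdown. Of the cytosolic members 2 were more negative and 4 more positive, and of the mitochondrial members 6 were more negative and 0 more positive. Set medians were -0.011 (cytosolic) and -0.078 (mitochondrial), beside 0.0094 for all genes. The mitochondrial median was -0.036 without siCtrl replicate 3 and -0.050 without siXBP1 replicate 4, and the cytosolic one ran from -0.023 to 0.0029 over the fits that left out 1 library, with the sign changing without siCtrl replicate 1. For mitochondrial members, 1 (YARS2) was more positive at an unadjusted p under 0.05, and DESeq2 called 0. The share of all genes at that unadjusted threshold was not counted. WARS1, called lower in both comparisons, had a difference of 0.053 ± 0.049, with an adjusted p of 0.484 and a 95% interval of -0.042 to 0.15.

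The differences were -1.62 ± 0.065 (SE, adjusted p = 1.55e-17) for LARS2, -0.86 ± 0.079 (SE, adjusted p = 1.01e-09) for MARS2 and -0.74 ± 0.062 (SE, adjusted p = 1.75e-10) for FARSA, by edgeR's quasi-likelihood test. For comparison, their MKC8866 values were 0.070, -0.13 and 0.00027. LARS1 (-0.44), VARS2 (-0.33), AARS2 (-0.28), FARS2 (-0.29) and PARS2 (-0.37) were also more negative after knockdown. IARS1 (0.26), GARS1 (0.24), CARS1 (0.20) and SARS1 (0.17) were more positive. The values of IARS1 had opposite signs in the 2 experiments. It read 500.1, 525, 521 and 506 CPM with Vehicle and 481, 496, 483 and 477 CPM with MKC8866, all lower. In the fit by group alone it was not called (-0.081 ± 0.035, adjusted p = 0.257 by edgeR's quasi-likelihood test).

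Of these 12 differences, 3 did not hold in every fit that left out 1 of the 16 libraries. PARS2 lost its call in 9 of 16 such fits (without siCtrl replicate 1 or 3, siXBP1 replicate 2, 3 or 4, Vehicle replicate 2 or 4, or MKC8866 replicate 1 or 3), with values of -0.44 to -0.28. FARS2 lost it in 8 (without siCtrl replicate 1, 2 or 3, siXBP1 replicate 1 or 4, Vehicle replicate 2 or 4, or MKC8866 replicate 4), with values of -0.34 to -0.23. SARS1 lost it in 4 (without siXBP1 replicate 2, Vehicle replicate 4, or MKC8866 replicate 1 or 3), with values of 0.15 to 0.19.

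Other genes of amino acid supply that ATF4 is known to regulate were also split after knockdown. Of these 19, 8 were called lower and 5 higher, beside 18.2% lower and 16.5% higher over all genes. Their median log2 fold change was -0.015, beside 0.0050 for all genes tested. The lower ones were led by MTHFD2, a folate enzyme of mitochondria, which lay at 253 to 270.1 CPM in siCtrl and at 124 to 135 CPM in siXBP1 (-1.04 ± 0.040, adjusted p = 5.66e-15). SLC1A4, a neutral amino acid transporter, lay at 42.9 to 48.4 CPM in siCtrl and at 26.3 to 29.1 CPM in siXBP1 (-0.75 ± 0.053, adjusted p = 1.64e-10). With MKC8866 it was instead the one gene of the 19 called higher, beside 1.36% of all genes. It lay at 40.7 to 48.8 CPM in Vehicle and 53.3 to 58.9 CPM in MKC8866 (0.31 ± 0.055, adjusted p = 0.000493 by edgeR's quasi-likelihood test). The higher ones after knockdown were led by the glutamine transporter SLC1A5 (0.40 ± 0.042) and the serine synthesis enzyme PSPH (0.38 ± 0.044). ASNS, the asparagine synthetase and a standard readout of ATF4, read 429, 396, 423 and 427 CPM in siCtrl and 396, 418, 405 and 414 CPM in siXBP1, and was called in neither comparison (-0.036 ± 0.038 and -0.012 ± 0.034).

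Of 13 regulators of the same stress response, 7 were called higher and 1 lower after knockdown, beside 16.5% higher and 18.2% lower over all genes. Their median log2 fold change was 0.10, beside 0.0050 for all genes tested. CEBPB, which encodes a C/EBP factor, lay at 40.4 to 51.3 CPM in siCtrl and at 68.8 to 93.5 CPM in siXBP1 (0.79 ± 0.082, adjusted p = 8.21e-08). DDIT3 (CHOP), an ATF4 target, lay at 184, 169, 183 and 179.6 CPM in siCtrl and at 239.7, 251, 258 and 238 CPM in siXBP1 (0.46 ± 0.041, adjusted p = 6.79e-09). ATF3 was the one called lower (-0.42 ± 0.042, adjusted p = 5.06e-08). The mRNA of ATF4 itself read 887, 920.0, 928 and 963 CPM in siCtrl and 881, 895, 877 and 926 CPM in siXBP1, overlapping groups at -0.047 ± 0.038. With MKC8866 it was the one regulator called, beside 3.11% lower and 1.36% higher over all genes. It was lower at -0.17 ± 0.037 (SE, adjusted p = 0.00715 by edgeR's quasi-likelihood test), at 884 to 973 CPM in Vehicle and 791 to 831 CPM in MKC8866. ATF4 is controlled in large part through its translation, which counts of mRNA do not show.

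Among 13 partners of the synthetases, 4 were called higher and 3 lower after knockdown, beside 16.5% higher and 18.2% lower over all genes. Their median log2 fold change was 0.090, beside 0.0050 for all genes tested. MTFMT, which formylates the mitochondrial initiator methionyl-tRNA that MARS2 charges, lay at 12.4 to 13.2 CPM in siCtrl and at 19.5 to 20.9 CPM in siXBP1. Its change (0.67 ± 0.061, adjusted p = 1.04e-08 by edgeR's quasi-likelihood test) had the opposite direction to MARS2. In the inhibitor experiment MTFMT lay at 18.2 to 19.7 CPM with Vehicle and at 19.9 to 21.6 CPM with MKC8866, so siCtrl was the group that stood apart. TARS3, a second cytosolic threonyl enzyme, lay at 14.96 to 18.7 CPM in siCtrl and at 21.3 to 23.6 CPM in siXBP1 (0.47 ± 0.071, adjusted p = 1.62e-05), beside an uncalled TARS1. The tRNA exporter XPOT was also higher (0.40 ± 0.038). DTD2, a deacylase that clears mischarged tRNA, was lower (-0.57 ± 0.093, adjusted p = 3.67e-05 by edgeR's quasi-likelihood test). GATC, a subunit of the amidotransferase that makes mitochondrial glutaminyl-tRNA, was also lower (-0.19 ± 0.059, adjusted p = 0.0134 by the same test). Its libraries overlapped, at 45.6 to 52.99 CPM in siCtrl and 39.9 to 46.6 CPM in siXBP1. Of the other subunits, QRSL1 was called higher, at 38.2 to 39.7 CPM in siCtrl and 42.7 to 45.3 CPM in siXBP1, and GATB was not called. With MKC8866 the alanyl editing protein AARSD1 was the one partner called, beside 3.11% lower and 1.36% higher over all genes. It was lower at -0.54 ± 0.15 (SE, adjusted p = 0.0327 by edgeR's quasi-likelihood test). Its libraries lay at 2.76 to 3.35 CPM with Vehicle and 1.73 to 2.77 CPM with MKC8866, which overlap.

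Some members share annotated exons with other genes, and the counting left out fragments that overlap 2 genes without regard to strand. Exons were shared by 20 of the 38 members, over more than 10% of the exonic bases in 9. Members with the largest shares were SARS2 (57%), AIMP2 (28.9%), VARS2 (22%), HARS2 (21.8%), EEF1E1 (18.7%) and HARS1 (18.3%), so their levels rest on the remaining exons. MARS1 shares 355 bases with DDIT3. LARS2, MARS2, PARS2, FARS2, RARS1, QARS1, IARS1, NARS1, SARS1 and YARS2 share 0 bases with another gene, and FARSA shares 1.03%, LARS1 0.517%, CARS1 2.04% and GARS1 2.38%.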

How the data were processed

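RNA-seq data of 16 libraries of LNCaP cells were used. The authors made stranded paired-end libraries, aligned them to GRCh38 with STAR 2.5.2a and deposited raw counts of fragments per gene from featureCounts 1.5.0-p3 on the Ensembl 85 annotation, without a strand setting and without multimapping fragments. Groups and replicate numbers came from the sample labels. Of 58051 genes, 56948 matched a symbol. A gene was tested if each group had a library with over 5 counts of it, as in the methods of the study. The quasi-likelihood F test of edgeR 4.0.16 (R 4.3.3, TMM scaling, two-sided) was fitted per comparison, and on 16 libraries for the difference. Benjamini-Hochberg adjusted p-values cover all genes tested, and calls were made under 0.05. FPKM used the deposited exonic lengths. Promoters came from RefSeq. The members, the gene lists and the motifs were chosen with earlier results of these data known. Values of single libraries are given for the called members with the largest changes (up to 6 per direction), members called in both comparisons or in the test of the difference, HARS1, HARS2, GARS1 and KARS1, and ATF4, DDIT3 and ASNS, and ranges for up to 2 leading called genes per direction of each other list. FARSB, KLK2, FOLH1 and XPOT were named after their values were seen. The test was repeated with DESeq2 1.42.0, with RLE size factors, without a filter, with a floor of 10 counts per library, with a replicate block, on the 16 libraries jointly and without each library in turn. The scripts were tested on simulated data. Python 3.11.15 with pandas 2.3.3 and matplotlib 3.10.9 made the summaries and figures. At 28713607 to 34509488 fragments per library, the lowest count of a member was 133.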

Additional observations from a re-analysis of the deposited data

Results flagged for a closer look

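Of 152 groups of 4 libraries (38 members in 4 groups), 6 held a library whose gap to the others passed Dixon's 95% limit, where chance alone gives about 1 in 20. EPRS1 in siXBP1 replicate 3 read 538 CPM against 514 to 517 CPM in the other libraries of its group, and CARS2 in the same library read 32.4 CPM against 27.5 to 28.3 CPM. SARS1 in Vehicle replicate 4 read 418 CPM against 401 to 403 CPM. In MKC8866 replicate 4, FARS2 read 16.8 CPM against 14.4 to 14.7 CPM, and SARS2 5.23 CPM against 4.72 to 4.76 CPM. VARS2 in MKC8866 replicate 2 read 65.1 CPM against 77.3 to 79.6 CPM.

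For 12 members the response to knockdown differed from the response to MKC8866 in the test of the difference itself (log2, knockdown minus inhibitor; edgeR's quasi-likelihood test). The more negative ones were LARS2 (-1.62, adjusted p = 1.55e-17), MARS2 (-0.86, 1.01e-09), FARSA (-0.74, 1.75e-10), LARS1 (-0.44, 1.31e-07), PARS2 (-0.37, 0.0442), VARS2 (-0.33, 0.0013), FARS2 (-0.29, 0.0394) and AARS2 (-0.28, 0.0033). The more positive ones were IARS1 (0.26, 0.000849), GARS1 (0.24, 0.000213), CARS1 (0.20, 0.00672) and SARS1 (0.17, 0.0223). The 2 experiments also differ in their controls and in the duration of treatment.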

How the results depend on the processing

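Calls of single members were stable in most settings. Of the 33 calls made for a member or XBP1 over the 3 comparisons, all 33 held with DESeq2, with RLE size factors and with at least 10 counts in every library. Without a filter on low counts 31 of 33 held, and in one fit of all 16 libraries 20 of 21 held. No call changed direction in any setting.

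The number of mitochondrial members called lower with MKC8866, 0 in the fit reported, was 1 with DESeq2, 1 with RLE size factors, 1 with at least 10 counts in every library and 2 without a filter. HARS2 passed the threshold in each of these 4 settings, and PARS2 in the last. The cause was not tested.

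Same-numbered libraries were checked for pairing by correlating their deviations from the group means. The correlations were 0.0096 to 0.0618 in the knockdown and 0.0794 to 0.318 in the inhibitor experiment, where 3 of 4 exceeded 0.1. Pairing was accepted only if every pair exceeded 0.1, so the samples were taken to share only a number. In the inhibitor experiment 3 of 4 Vehicle libraries and 3 of 4 MKC8866 libraries correlated best with their own number, a hint from the data and not from the design. With the replicate block, the estimated coefficient of variation between libraries in the inhibitor experiment fell from 4.97% to 2.68%. Genes called with MKC8866 rose from 654 (3.11%) to 1484 (7.05%) lower and from 287 (1.36%) to 1262 (6%) higher. Cytosolic members called with MKC8866 then numbered 3 lower (1 without it) and 1 higher (0 without it), and mitochondrial members 2 lower (0 without it). In the difference between the responses the block gave 4 cytosolic members more negative (2 without it) and 1 mitochondrial member more positive (0 without it). Over all genes, calls in that difference also rose with the block, from 12.7% to 14.7% more negative and from 10.6% to 13% more positive. The members that gained a call were FARSB, IARS1, VARS1, HARS2 and PARS2 with MKC8866, and NARS1, RARS1, VARS1 and YARS2 in the difference. After knockdown NARS1 lost its call (adjusted p = 0.0530) and EARS2 gained one. The block changed no other call of a member.

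Leaving out each library in turn gave, after knockdown, 4 to 6 cytosolic members lower and 4 to 5 higher, 7 to 8 mitochondrial members lower and 0 to 1 higher, a cytosolic median of -0.052 to -0.026 and a mitochondrial median of -0.13 to -0.087. With MKC8866 the counts were 1 to 2 cytosolic and 0 to 1 mitochondrial members lower, 0 higher in both sets, with medians of -0.042 to -0.017 and -0.047 to -0.021. Without MKC8866 replicate 2, FARSB was the second cytosolic member, and the medians were -0.042 and -0.047. HARS2 was called without Vehicle replicate 1 or MKC8866 replicate 1, and PARS2 without Vehicle replicate 2 or MKC8866 replicate 3. In the difference between the responses, 2 to 3 cytosolic members were more negative and 3 to 4 more positive, and 4 to 6 mitochondrial members were more negative and 0 more positive. The medians were -0.023 to 0.0029 (cytosolic) and -0.11 to -0.036 (mitochondrial), the last without siCtrl replicate 3.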

Other observations

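The enzymes of the 2 structural classes of synthetases were counted apart. Class I, which includes the enzymes for leucine, isoleucine, valine and methionine, had 4 of 9 cytosolic members lower and 2 higher after knockdown, and 3 of 9 mitochondrial members lower and 1 higher. Class II, which includes those for alanine, glycine, phenylalanine and histidine, had 1 of 9 cytosolic members lower and 3 higher, and 4 of 7 mitochondrial members lower and 0 higher. The medians of the log2 fold changes were -0.11 (class I) and -0.023 (class II) in the cytosolic set and -0.097 and -0.24 in the mitochondrial set, beside 0.0050 for all genes tested. Of all genes tested, 18.2% were called lower and 16.5% higher. EPRS1 joins an enzyme of each class and was left out of this count.

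Among enzymes for branched-chain amino acids, those for leucine were lower after knockdown in both compartments (LARS1 -0.42 and LARS2 -1.56). Those for isoleucine were at 0.18 (IARS1, called higher) and 0.037 (IARS2, not called), and those for valine at -0.11 (VARS1, not called) and -0.32 (VARS2, called lower). These genes were singled out after their values were seen.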
